A study of Mus musculus with 24 samples.

Results

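The genes of the proteasome, the barrel-shaped protease that degrades ubiquitin-tagged proteins, were followed in 24 mouse liver RNA-seq libraries. Members were taken by name: loci with a single gene name of the form Psma, Psmb, Psmc, Psmd or Psme followed by a number. Of 30456 single-name loci, 44 matched. One of them, Psmc3ip, shares the prefix but encodes a cofactor of meiotic recombination, which leaves 43 proteasome genes. They comprise 7 genes of the alpha ring and 7 of the beta ring of the 20S core, 6 ATPases and 11 non-ATPase subunits of the 19S cap, 3 assembly chaperones of the cap (Psmd5, Psmd9 and Psmd10), 4 activators (Psme1 to Psme4), 3 immunoproteasome subunits (Psmb8, Psmb9 and Psmb10, kept apart throughout) and 2 forms of other tissues (Psma8 of testis and Psmb11 of thymus).

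Livers came from C57BL/6J mice kept for 16 weeks on either chow or high fat food, with 3 libraries in each of 8 groups. All mice carried Alb-Cre, in which the albumin promoter drives Cre recombinase in hepatocytes. The Control groups carried Alb-Cre alone, and the others also carried floxed alleles of Jnk1 (Mapk8), of Jnk2 (Mapk9) or of both, named Jnk1, Jnk2 and Jnk1Jnk2 here. Age and sex are not given in the sources used here, and nothing says that the 3 libraries of a group come from different animals. The spread that p-values are judged against may therefore be technical. Whole liver also holds cells in which Alb-Cre is not active. In bulk tissue, fewer cells of a type and less RNA per cell cannot be told apart.

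Proteolysis takes place inside the 20S core, where 3 beta subunits carry the active sites: Psmb6, Psmb7 and Psmb5. The 19S cap binds ubiquitin chains, unfolds the substrate with its ATPase ring and feeds it into the core. Interferons induce Psmb9, Psmb10 and Psmb8, which replace those 3 subunits in newly built cores, and the immunoproteasome formed in this way cuts peptides suited to presentation on MHC class I. Psme1 and Psme2 form an interferon-inducible cap that can take the place of the 19S particle. In hepatocytes, as in most cells, cores without the immune subunits are the usual form.

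Levels are in FPKM, a unit per transcript length and sequencing depth, meant to allow levels of different genes to be compared. In these libraries FPKM still depended on length, to a degree that differed between libraries. Changes are differences of log2(FPKM + 1) between group means with the standard error of the fit, tested with limma over all 10562 loci with a mean of at least 1 FPKM, and a gene is called where its p, adjusted by Benjamini-Hochberg, is under 0.05. The knockout comparisons on one diet share the Control libraries of that diet. In all, 38 constitutive genes and the 3 immunoproteasome genes were tested. Psma8, with 0.194 to 1.1 FPKM, and Psmb11, with 0 to 0.0649 FPKM, fell under the minimum.

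Relative depth of the libraries spanned 0.299 to 1, and the absolute depth is unknown. Mapk8 was at 0.845 to 2.47 FPKM in libraries with floxed Jnk1 and at 3.38 to 5.77 FPKM elsewhere; Mapk9 was at 4.33 to 7.79 FPKM in libraries with floxed Jnk2 and at 9.01 to 12 FPKM elsewhere. Hepatocyte markers such as Apoa1, at 5260 to 12429 FPKM, and Ttr, at 2229 to 6977 FPKM, were abundant. They do not stand for all hepatocyte markers. Of 10 tested, 4 were called higher and 5 lower on high fat in Jnk1Jnk2, beside 30.1% and 26.8% of all tested loci. Albumin is listed at 0 in 4 of the 24 libraries and was at 15236 to 28474 FPKM in the others. The 3 high fat Jnk1Jnk2 libraries stood apart in how FPKM depended on transcript length: the rank correlation of a library's deviations with length was -0.653 to -0.594 in them and -0.229 to 0.42 in the other 21, and their FPKM summed to 849038 to 873399 against at most 734352. The proteasome genes are short, with a median of 1534 bases against 2723 over the tested loci. Counts of constitutive genes in those libraries are therefore given beside loci of similar length and after the length trend of each library was removed.

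By class median over all libraries the core was the most abundant component, at 95.6 FPKM for the alpha and 144 FPKM for the beta ring. Alpha ring genes averaged 71.6 (Psma1) to 175 FPKM (Psma7), and beta ring genes 73.1 (Psmb2) to 190 FPKM (Psmb4). The cap was lower, at 42.4 (Psmc2) to 70 FPKM (Psmc1) for the ATPases and 28.9 (Psmd11) to 79.6 FPKM (Psmd4) for the non-ATPase subunits. Its chaperones were at 7.97 (Psmd10) to 20 FPKM (Psmd9). Within a complex the levels of equimolar subunits thus spanned 1.65-fold among the ATPases to 2.75-fold among the non-ATPase subunits. The activators were at 18.9 (Psme3) to 78.9 FPKM (Psme2). The immunoproteasome genes lay well under the beta ring, at 18.4 (Psmb10), 23.7 (Psmb9) and 24.1 FPKM (Psmb8). All these means include the high fat Jnk1Jnk2 libraries, in which FPKM leaned toward short transcripts.

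Core genes also varied together from library to library, within and between rings, as did cap genes among themselves. After group means were taken out, pairs of beta ring genes had a median Pearson correlation of 0.72 (0.45 to 0.85) over the 24 libraries, ATPase pairs 0.63 (0.09 to 0.82) and alpha ring pairs 0.48 (0.09 to 0.94). Pairs of an alpha with a beta ring gene had 0.50 (-0.06 to 0.90), and non-ATPase cap pairs 0.50 (-0.42 to 0.84). Between core and cap, pairs of a beta ring gene with an ATPase gene had a lower median, 0.39 (-0.09 to 0.65). The 3 immunoproteasome pairs ranged from 0.18 to 0.70. These are descriptions only, since the genes share libraries, depth and the length dependence above.

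Immunoproteasome RNA was higher on high fat. All 3 genes rose in all 4 genotypes, where 10.1% (Control), 9.22% (Jnk1), 19.7% (Jnk2) and 30.1% (Jnk1Jnk2) of all tested loci were called higher. Psmb8 (chr17:34198195-34201454, mm10) is the beta subunit that replaces Psmb5. In Control livers it was at 15.7, 21.7 and 14.3 FPKM on chow and at 27.2, 36.8 and 32.7 FPKM on high fat. The change was 0.88 ± 0.17 (SE; limma adjusted p = 0.00164, n = 3 per group). In Jnk1Jnk2 livers Psmb8 went from 14.1, 15.3 and 13.3 FPKM on chow to 37.8, 41 and 45.9 FPKM on high fat, a change of 1.48 ± 0.17 (limma adjusted p = 1.97e-06). The diets did not overlap in either genotype. Its rises in Jnk1 (0.72 ± 0.17) and Jnk2 (0.62 ± 0.17) were smaller.

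Psmb9 (chr17:34182099-34187330) replaces Psmb6 and had the largest diet change of the 3 genes in every genotype. Control libraries held 13.7, 12.8 and 7.14 FPKM on chow and 28.4, 41.7 and 31.4 FPKM on high fat, a change of 1.54 ± 0.24 (limma adjusted p = 0.000347). Jnk1 libraries held 22.4, 12.7 and 9.69 FPKM on chow against 27.9, 29.5 and 28.2 FPKM on high fat (0.97 ± 0.24; limma adjusted p = 0.0108). Jnk1 replicate 1 was the highest chow library, yet it stayed under every high fat Jnk1 library. Fitted with the Jnk1 groups alone, that rise did not pass (adjusted p = 0.0792). Jnk2 libraries held 15.7, 11.1 and 13.3 FPKM on chow and 29.6, 29.8 and 21.4 FPKM on high fat (0.96 ± 0.24). Jnk1Jnk2 libraries held 13.2, 10.6 and 10.1 FPKM on chow and 44.8, 46.3 and 57 FPKM on high fat, the highest of all groups (2.04 ± 0.24; limma adjusted p = 3.21e-06).

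Psmb10 (chr8:105935728-105938392) replaces Psmb7. It rose by 0.90 ± 0.18 in Control, from 11.3, 13 and 13.1 FPKM on chow to 21.1, 26.1 and 25.5 FPKM on high fat. The rise was 0.64 ± 0.18 in Jnk1 and 1.45 ± 0.18 in Jnk1Jnk2, where chow libraries were at 9.58, 9.59 and 9.49 FPKM and high fat libraries at 21.3, 33.1 and 30.8 FPKM. Jnk2 was the weakest case: 12.7, 13.5 and 12.3 FPKM on chow against 23.4, 24.2 and 13.1 FPKM on high fat, where high fat Jnk2 replicate 3 lay within the chow range (0.58 ± 0.18; limma adjusted p = 0.0242). That call was lost with size factors (each library scaled to a common median ratio) (adjusted p = 0.0648) and with quantile normalization (adjusted p = 0.054). With the Jnk2 groups fitted alone, neither Psmb8 (adjusted p = 0.0676) nor Psmb10 (adjusted p = 0.135) passed in that genotype.

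**Figure D1:**
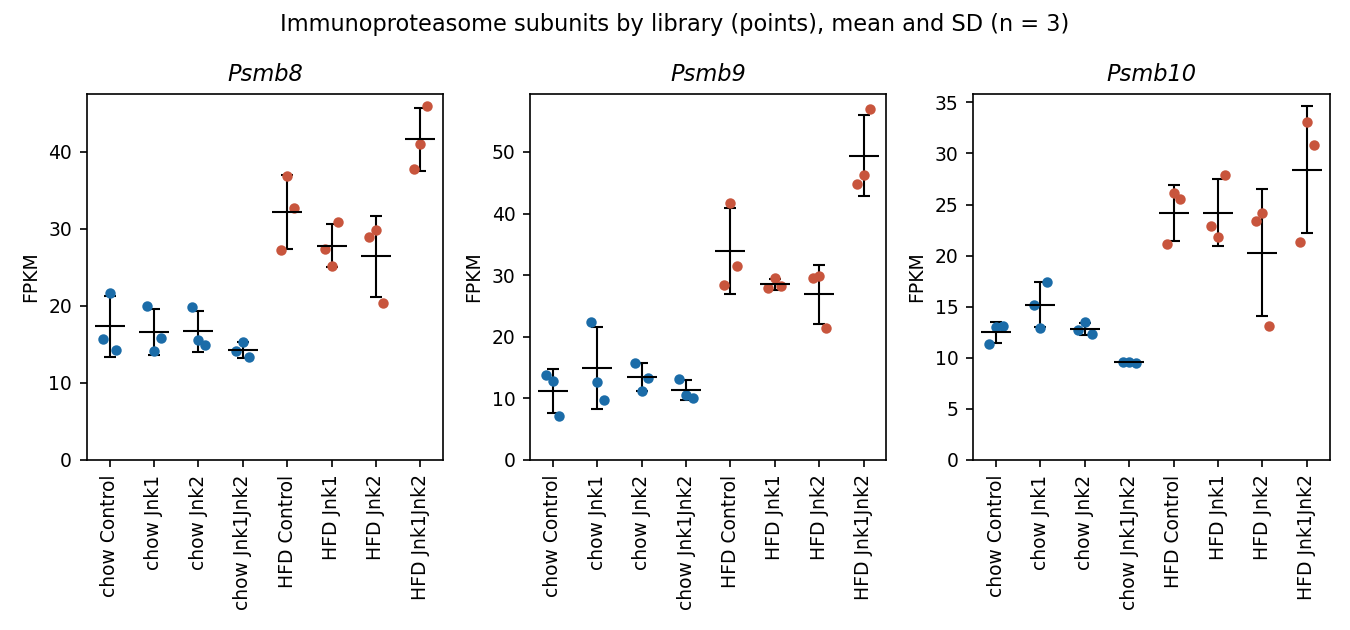
FPKM (vertical axes, from 0) of Psmb8, Psmb9 and Psmb10 in the 8 groups, chow in blue and high fat (HFD) in red. Points are the 3 libraries, horizontal bars the means and error bars the SD. Over all genotypes Psmb8 was at 13.3 to 21.7 FPKM on chow and 20.3 to 45.9 FPKM on high fat.

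All 3 genes remained called in each genotype (3 of 3 each) once the length trend was removed, with medians of 0.82 (Control), 0.72 (Jnk1), 0.43 (Jnk2) and 1.12 (Jnk1Jnk2). Their length of 1311 to 1628 bases is close to the median member, and tested loci of similar length changed by a median of 0.34 to 0.49 in Jnk1Jnk2 and by 0.04 to 0.05 in Control.

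Genotype had no called effect on the 3 genes. On chow, log2 differences from Control ranged from -0.35 (Psmb10 in Jnk1Jnk2) to 0.35 (Psmb9 in Jnk1). On high fat, Jnk2 livers were lower by estimate for all 3 (-0.32 to -0.29) and Jnk1Jnk2 livers higher (0.20 to 0.54), and none was called. For Psmb8 and Psmb9 the high fat Jnk1Jnk2 libraries did not overlap the Control libraries, with limma adjusted p = 0.0755 and 0.0696, and both passed with size factors (adjusted p = 0.0215 and 0.0335). With the length trend removed their adjusted p was 0.423 and 0.418. The diet response of Psmb8 in Jnk1Jnk2 exceeded that in Control by 0.60 ± 0.24 (interaction, limma adjusted p = 0.0528), and by 0.30 ± 0.21 with the length trend removed (adjusted p = 0.317). A difference in diet response between genotypes was thus not detected for these 3 genes with 3 libraries per group.

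The share of the immune forms in the RNA of the catalytic subunits followed diet. Psmb8, Psmb9 and Psmb10 together made up 9.37% ± 1.2 (SD, n = 3) of the FPKM of the 6 catalytic genes in Control on chow, 9.7% ± 1.31 in Jnk1, 9.83% ± 0.945 in Jnk2 and 8.44% ± 0.687 in Jnk1Jnk2. The shares on high fat were 20.9% ± 1.49, 19.4% ± 2.35, 16.6% ± 2.61 and 16% ± 1.24 in the same order. Every high fat library, at 13.5% or more, lay above every chow library, at 11.1% or less. On high fat the Jnk1Jnk2 libraries (16.6%, 14.5% and 16.7%) lay under the Control libraries (20.5%, 22.5% and 19.6%), while their immune subunits summed to 119 ± 14.9 FPKM against 90.3 ± 13.9 FPKM. Psmb5, Psmb6 and Psmb7 summed to 632 ± 98.4 FPKM against 342 ± 38.7 FPKM. Their transcripts, of 899, 798 and 1160 bases, are shorter than those of Psmb8, Psmb9 and Psmb10, of 1628, 1352 and 1311 bases. FPKM in the high fat Jnk1Jnk2 libraries leaned toward short transcripts, and these shares and sums were not adjusted for length. The part of length in the lower share was not tested. An exact permutation test of 3 libraries against 3 cannot go below a two-sided p of 0.1.

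Other genes of the class I pathway and of the interferon response moved with diet as well. Of 13 genes of class I antigen presentation, the number that rose on high fat was 8 for Control, 8 for Jnk1, 5 for Jnk2 and 8 for Jnk1Jnk2, and 0, 0, 2 and 4 fell. Of all tested loci 10.1%, 9.22%, 19.7% and 30.1% rose in the same order, and 6.19%, 5.81%, 6.39% and 26.8% fell. The 30.8% of class I genes that fell in Jnk1Jnk2 thus lay near the share of all loci. Tap1, one chain of the peptide transporter that loads class I molecules, rose by 0.85 ± 0.13 in Control and 0.76 ± 0.13 in Jnk1Jnk2, and Tap2, its partner chain, by 0.55 ± 0.11 and 0.65 ± 0.11. Of 23 interferon response genes, 20, 19, 20 and 19 rose in the same order of genotypes, and 0 fell in each. In Jnk1Jnk2, with the length trend removed, 5 class I genes rose and 4 fell, and 19 interferon genes rose. Of all loci 19.6% then rose and 21.1% fell. Ifit1, an antiviral effector, rose by 1.88 ± 0.21 in Control, and Isg15, a ubiquitin-like modifier, by 1.85 ± 0.32. Psmb8 and Psmb9 lie beside Tap1 and Tap2 in the MHC region of chromosome 17.

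Markers of immune cells rose too. Of 16 macrophage markers, 9, 4, 13 and 14 rose in that order, beside 10.1%, 9.22%, 19.7% and 30.1% of all tested loci. With the length trend removed 6, 3, 12 and 13 rose. In Jnk1Jnk2 19.6% of all loci then rose, and no such share is given for the other genotypes. Their summed FPKM went from 214 to 392 over the chow libraries to 348 to 833 over the high fat libraries. The 15 lymphocyte and antigen-presenting markers summed to 52.7 to 81.4 FPKM on chow and 84 to 211 FPKM on high fat, of which Cd74 (mean 64.6 FPKM) and H2-Aa (25.2 FPKM), the class II genes, made up most. Only 4 of the 15 passed the minimum and were tested, and 3, 2, 2 and 3 of these rose. The mean of the T cell marker Cd3e was low (0.364 FPKM), and each of the 15 had a mean over libraries above 0. Markers of other cells were called too. Of 8 sinusoidal endothelial markers 1, 2, 7 and 1 rose, and of 8 stellate markers 1, 2, 6 and 6. Of 10 hepatocyte markers 0, 1, 1 and 4 rose and 2, 3, 4 and 5 fell. Of all tested loci 6.19%, 5.81%, 6.39% and 26.8% fell. Immune cells express immunoproteasome genes, and the part of any of these cells in the rises of those genes was not tested.

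The upstream sequence of the 3 genes is shown because they moved together on high fat. Each is the 250 bases before the RefSeq transcription start (GRCm38.p6), 5′ to 3′ on the strand of the gene: Psmb8 at chr17:34197945-34198194 on the plus strand, Psmb9 at chr17:34187331-34187580 on the minus strand and Psmb10 at chr8:105938393-105938642 on the minus strand. Of the 41 tested members, 35 had such a sequence. Capitals mark matches to 3 motifs searched on both strands: GAAANNGAAA (interferon-stimulated response element), TTCNNNGAA (interferon-gamma-activated site) and TGANNNNGC (core of the antioxidant response element).
Psmb8: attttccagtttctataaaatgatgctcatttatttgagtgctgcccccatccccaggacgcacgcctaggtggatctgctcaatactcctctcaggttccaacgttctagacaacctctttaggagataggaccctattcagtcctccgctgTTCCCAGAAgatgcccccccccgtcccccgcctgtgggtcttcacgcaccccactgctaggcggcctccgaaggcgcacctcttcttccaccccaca
Psmb9: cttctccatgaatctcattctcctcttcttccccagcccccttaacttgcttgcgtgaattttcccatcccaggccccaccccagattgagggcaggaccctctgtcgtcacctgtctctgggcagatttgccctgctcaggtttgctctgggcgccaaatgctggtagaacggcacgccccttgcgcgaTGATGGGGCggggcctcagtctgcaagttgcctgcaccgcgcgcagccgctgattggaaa
Psmb10: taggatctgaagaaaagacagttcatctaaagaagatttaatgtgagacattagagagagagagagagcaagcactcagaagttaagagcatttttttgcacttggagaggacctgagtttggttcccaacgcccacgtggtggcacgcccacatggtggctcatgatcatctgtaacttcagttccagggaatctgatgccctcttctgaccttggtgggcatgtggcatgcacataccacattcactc
Psmb8 held TTCNNNGAA, a palindromic pattern that reads on both strands, 97 bases before the start, and Psmb9 held TGANNNNGC 60 bases before it. Psmb10 held none of the 3. Among 27025 genes, 8.13% had TTCNNNGAA in the same window, 3.46% had GAAANNGAAA and 38.7% had TGANNNNGC. A match is a pattern of letters and not a measured binding site.

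Of the activators, Psme2 followed the immunoproteasome in part. It rose on high fat by 0.70 ± 0.15 in Control (limma adjusted p = 0.00441), from 53.2, 62 and 56 FPKM to 82.7, 119 and 82.7 FPKM, and by 0.93 ± 0.15 in Jnk1Jnk2. Jnk1 (0.40 ± 0.15, adjusted p = 0.0898) and Jnk2 (0.08 ± 0.15, adjusted p = 0.731) did not pass. With the length trend removed, Psme2 was called higher on high fat in Jnk1. Its diet response in Jnk2 was then called more negative than that in Control. The levels of Psme2 over the 24 libraries correlated with those of the 3 immunoproteasome genes at a median of 0.86, and those of its partner Psme1 at 0.61. After group means were taken out the order turned, at 0.52 for Psme2 and 0.77 for Psme1. Psme1 was level between diets in Control (70.7, 79.3 and 70.6 FPKM on chow, 74.3, 73.9 and 73.8 FPKM on high fat). It was called higher on high fat in Jnk1Jnk2 by 0.58 ± 0.09, at 98.5, 109 and 107 FPKM, but by 0.03 ± 0.07 with the length trend removed. The locus of Psme1 overlaps Emc9, and a copy of Psme2, Psme2b, is annotated, so reads may be shared.

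Psme3, the nuclear activator, was the single constitutive gene called lower in high fat Jnk1Jnk2 livers. It was at 15.4, 15.2 and 15.8 FPKM there and at 18.1, 16.6 and 20.2 FPKM in high fat Control (-0.22 ± 0.07; limma adjusted p = 0.00891), and at 18.1 to 20 FPKM on chow. The difference was -0.14 ± 0.06 after the length trend was removed (adjusted p = 0.0644). Psme4, the largest activator, fell on high fat in Control by 0.34 ± 0.11 on the log2 scale, from 22.3, 23.2 and 23.1 FPKM to 18.6, 14.8 and 20.4 FPKM.

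On high fat, more constitutive genes were called lower than higher in Control and Jnk1 livers. In Control, 5 of 38 fell and 1, Psme2, rose, where 6.19% of all tested loci and 8.23% of 2623 loci of similar length (1170 to 2212 bases) fell. That window runs from the lower to the upper quartile of the members' lengths, so some members lie outside it. In Jnk1, 9 of 38 fell and 0 rose, against 5.81% of all loci and 8.46% of those of similar length called lower. With the length trend removed, 14 fell in Control and 12 in Jnk1, where 11.5% and 9.33% of all loci fell, and 1 rose in each. In Control the 14 included the 5 called before and 5 beta ring genes: Psmb3, Psmb4, Psmb5, Psmb6 and Psmb7. With the Control groups fitted alone, 2 fell. Leaving out chow Control replicate 2 or 3 or high fat Control replicate 1 or 2 also left 2 that fell.

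Psmd9, a chaperone that holds ATPases during assembly of the cap, had the largest fall. In Control it was at 20.5, 20.4 and 20.6 FPKM on chow and at 10, 11.2 and 12.4 FPKM on high fat, a change of -0.82 ± 0.16 (limma adjusted p = 0.00225). In Jnk1 it went from 26.8, 20.4 and 25.6 FPKM to 11.1, 11.8 and 10.4 FPKM (-1.05 ± 0.16; limma adjusted p = 0.000311). Both falls kept their size with the length trend removed, at -0.85 and -1.08.

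Psmd4, the cap subunit that binds ubiquitin chains, fell in Control from 82, 82.9 and 85.9 FPKM to 59.1, 52.5 and 62.9 FPKM (-0.52 ± 0.10; limma adjusted p = 0.00155). Its change in Jnk1 was -0.26 ± 0.10 (adjusted p = 0.0848). Psmb4, a structural subunit of the beta ring, fell in Jnk1 from 204, 187 and 229 FPKM to 143, 159 and 144 FPKM (-0.47 ± 0.11; limma adjusted p = 0.00853). The active-site subunit Psmb7 fell there from 178, 133 and 173 FPKM to 115, 127 and 118 FPKM (-0.41 ± 0.12; limma adjusted p = 0.0209). Chow and high fat libraries did not overlap for any of these.

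The Jnk1 count moved with single libraries. Without chow Jnk1 replicate 1 or high fat Jnk1 replicate 1, 3 genes fell, without chow Jnk1 replicate 3, 4 fell, and without high fat Jnk1 replicate 3, 2 fell. The diet responses of Control and Jnk1 were not shown to differ: 0 of 38 genes were called for that interaction by limma (2 at an unadjusted p under 0.05), and 0% of all tested loci were.

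**Figure D2:**
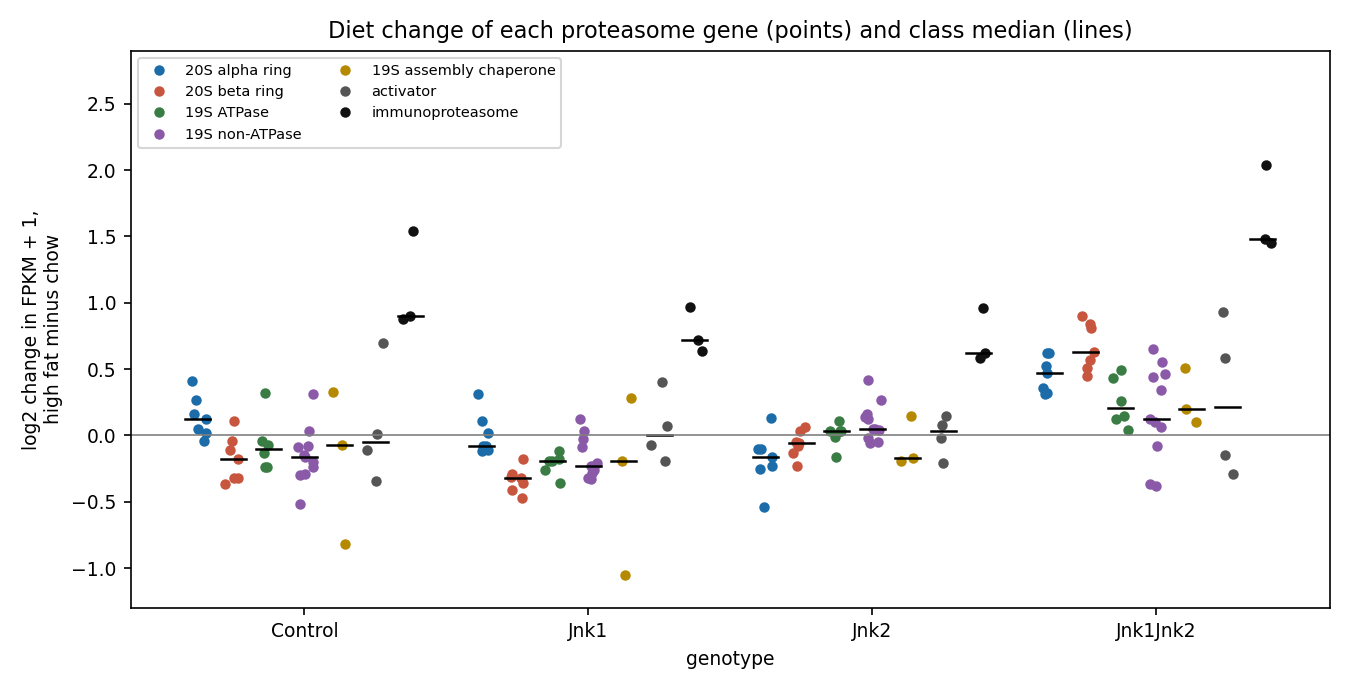
Change on high fat (log2 FPKM + 1, high fat minus chow) of each of the 41 tested proteasome genes in each genotype. Points are genes, colored by class, and lines are class medians. The immunoproteasome genes lay above nearly all other members in each genotype, with medians of 0.90, 0.72, 0.62 and 1.48.

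In Jnk2 livers 2 of 38 constitutive genes rose on high fat, Psmd8 (0.42 ± 0.10) and Psmd3 (0.27 ± 0.09), and 1 fell, Psma7, an alpha ring gene (-0.54 ± 0.14; limma adjusted p = 0.00686; 192, 173 and 199 FPKM on chow, 122, 131 and 133 FPKM on high fat). In that contrast 19.7% of all tested loci rose and 6.39% fell, so a smaller share of the constitutive genes than of all loci was called higher. With size factors or quantile normalization 1 rose and 3 fell. Removing the length trend gave 1 that rose and 8 that fell, with 11.2% of loci called lower.

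On chow no constitutive proteasome gene was called for knockout of either or both Jnk genes. By limma 0 of 38 passed in Jnk1, Jnk2 and Jnk1Jnk2 against Control, where 2.2%, 0.454% and 0.161% of all tested loci were called in either direction. At an unadjusted p under 0.05 there were 0, 3 and 8 genes. Log2 differences ranged from -0.20 to 0.23 in Jnk1, -0.12 to 0.36 in Jnk2 and -0.11 to 0.43 in Jnk1Jnk2. On high fat, Jnk1 against Control likewise gave 0 of 38 (2 at an unadjusted p under 0.05), with 0.227% of all loci called.

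On high fat, Jnk2 livers had higher RNA for part of the 19S cap. Of 38 constitutive genes 8 were higher and 0 lower than in Control, with 7.45% of all tested loci higher, 4.96% lower and 10.1% of loci of similar length higher. Of the 17 cap subunits 7 were higher (Psmd3, Psmd4, Psmd8, Psmd2, Psmc1, Psmc2 and Psmc4), as was the cap chaperone Psmd9, while 0 of the 14 core subunits were called (0 at an unadjusted p under 0.05). The difference between cap and core was not tested.

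Psmd9 was at 15, 16.3 and 27.1 FPKM in Jnk2 and 10, 11.2 and 12.4 FPKM in Control on high fat (0.70 ± 0.16; limma adjusted p = 0.00759), with Jnk2 replicate 3 far above the other libraries. Psmd3, a scaffold subunit of the lid, was at 60.5, 63 and 68.8 FPKM against 42.9, 36.2 and 51.2 FPKM (0.56 ± 0.09; limma adjusted p = 0.00079). Psmd4 was at 77.3, 82.3 and 95 FPKM against 59.1, 52.5 and 62.9 FPKM (0.54 ± 0.10; limma adjusted p = 0.00153). No Jnk2 library overlapped a Control library for these 3 genes.

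Removing the length trend left 7 of 38 called higher, 6 of them shared, with 7.89% of all loci called higher. Fitted with the 2 groups alone, 0 were called, and the adjusted p of Psmd3 was 0.11. Without high fat Control replicate 2 or high fat Jnk2 replicate 3, 4 were called. Markers of other cells also differed in this comparison: 7 of 8 sinusoidal endothelial markers, 4 of 8 stellate markers and 3 of 16 macrophage markers were higher in Jnk2, and their part in the result was not tested. The diet response differed from that of Control for 3 of 38 genes, where 6.18% of all loci had a more positive and 3.33% a more negative response: Psmd4 (0.64 ± 0.14), Psmd8 (0.58 ± 0.14) and Psmd3 (0.55 ± 0.13). Without high fat Control replicate 3 the interaction gave 10 genes, 5 in each direction. Size factors gave 3 more positive and 1 more negative, and quantile normalization 3 and 2.

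The broadest difference was between Jnk1Jnk2 and Control livers on high fat. Of 38 constitutive genes 28 were higher and 1 was lower, with a median change of 0.50, where 19.6% of all 10562 tested loci were higher and 31.6% lower, with a median of -0.07. Among 2623 loci of similar length, 34.8% were higher and 7.32% lower, with a median of 0.20. All 7 beta ring genes were higher (median 0.87), as were 6 of 7 alpha ring genes (0.58), 5 of 6 ATPases (0.46) and 8 of 11 non-ATPase cap subunits (0.36). The chaperones Psmd5 and Psmd10, the alpha ring gene Psma3, the ATPase Psmc6, the cap subunits Psmd1, Psmd2 and Psmd11 and the activators Psme2 and Psme4 did not pass.

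Psmd9 (chr5:123228190-123250125) had the largest difference, 1.23 ± 0.16 (limma adjusted p = 7.99e-06). High fat Jnk1Jnk2 libraries were at 28.5, 29.3 and 25 FPKM and high fat Control libraries at 10, 11.2 and 12.4 FPKM. Chow levels were 20.5, 20.4 and 20.6 FPKM in Control and 29.9, 21.3 and 21.1 FPKM in Jnk1Jnk2. Psmd9 thus fell on high fat in Control and in Jnk1, and its change in Jnk1Jnk2 was 0.20 ± 0.16 (adjusted p = 0.294).

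Psmb5 (chr14:54614120-54617995), the chymotrypsin-like active site that Psmb8 replaces, was at 190, 296 and 264 FPKM against 101, 122 and 117 FPKM (1.12 ± 0.14; limma adjusted p = 4.55e-06). Psmb3, a structural subunit of the beta ring, was at 160, 238 and 192 FPKM against 84.8, 97.9 and 105 FPKM (1.01 ± 0.13, limma adjusted p = 7.96e-06). The active-site subunit Psmb6 was at 158, 202 and 183 FPKM against 82.7, 108 and 103 FPKM (0.89 ± 0.12), and Psmb7 at 172, 211 and 218 FPKM against 114, 131 and 149 FPKM (0.61 ± 0.12). In each of the 4 genes every Jnk1Jnk2 library lay above every Control library, and Jnk1Jnk2 replicate 1 had the lowest value among the Jnk1Jnk2 libraries.

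Psmd4 was at 102, 121 and 122 FPKM against 59.1, 52.5 and 62.9 FPKM (0.97 ± 0.10; limma adjusted p = 7.42e-07). Psmd13, a lid subunit, was at 62.7, 74 and 79.5 FPKM against 35.2, 41 and 43.6 FPKM (0.83 ± 0.11). The libraries of the 2 groups did not overlap for 28 of the 38 genes, for 52.4% of all tested loci and for 43.1% of loci of similar length.

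**Figure D3:**
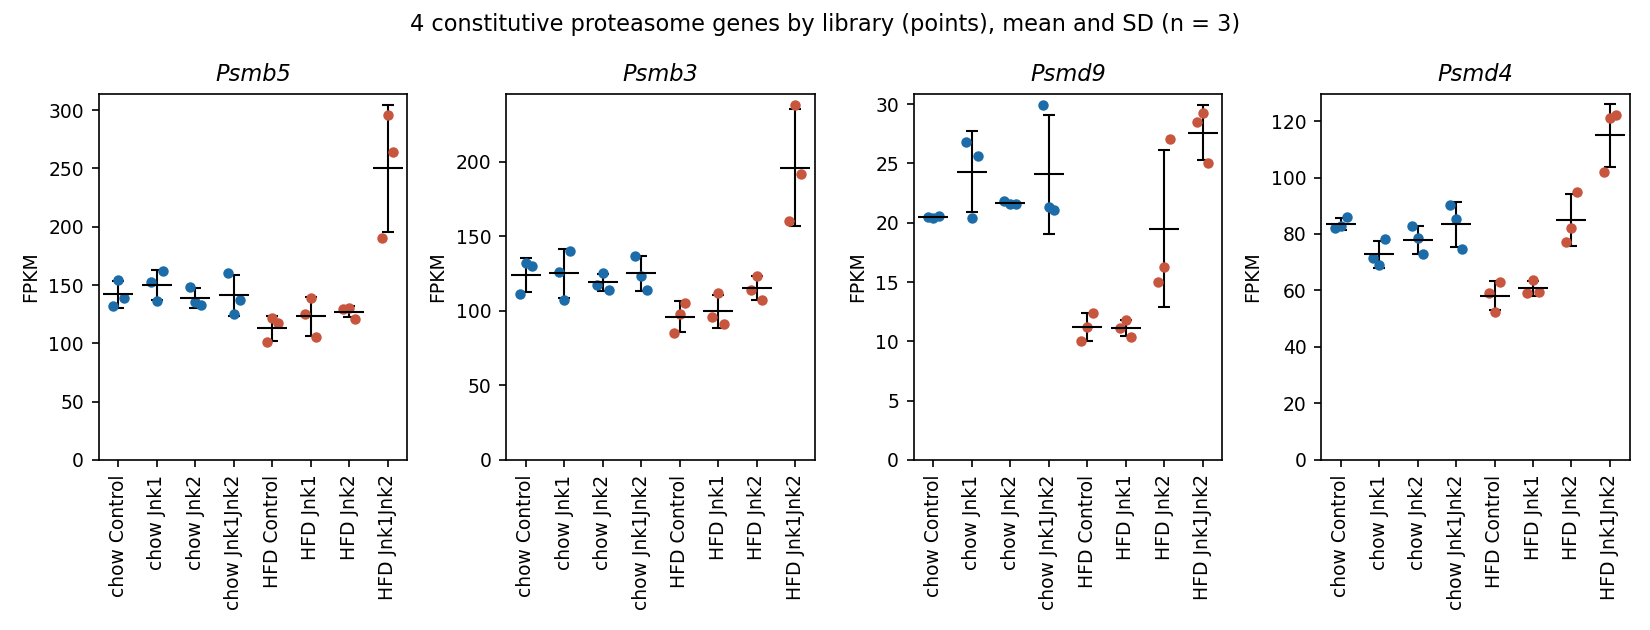
FPKM (vertical axes, from 0) of Psmb5, Psmb3, Psmd9 and Psmd4 in the 8 groups, chow in blue and high fat (HFD) in red. Points are the 3 libraries, horizontal bars the means and error bars the SD. High fat Jnk1Jnk2 had the highest group mean for each gene, and Psmd9 was lowest in high fat Control and Jnk1, at 11.2 and 11.1 FPKM.

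Upstream sequence of Psmb5 and Psmd9, which had the largest differences, is shown in the same way (250 bases, GRCm38.p6; Psmb5 at chr14:54617996-54618245 on the minus strand and Psmd9 at chr5:123227940-123228189 on the plus strand), with the same motifs in capitals.
Psmb5: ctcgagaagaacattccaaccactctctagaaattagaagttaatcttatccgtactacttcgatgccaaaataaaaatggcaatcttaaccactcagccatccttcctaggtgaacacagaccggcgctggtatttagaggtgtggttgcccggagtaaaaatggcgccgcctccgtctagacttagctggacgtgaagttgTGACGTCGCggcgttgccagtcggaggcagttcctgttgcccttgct
Psmd9: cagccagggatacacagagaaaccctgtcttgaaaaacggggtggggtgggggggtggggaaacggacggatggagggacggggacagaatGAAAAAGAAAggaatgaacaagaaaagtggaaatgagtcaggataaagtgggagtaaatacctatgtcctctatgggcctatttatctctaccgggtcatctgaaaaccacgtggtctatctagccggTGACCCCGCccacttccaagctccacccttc
Psmb5 held TGANNNNGC 47 bases before the start. Psmd9 held it 31 bases before the start and GAAANNGAAA 159 bases before it. Of the 32 constitutive genes matched to an upstream sequence, 12 (37.5%) held TGANNNNGC, beside 38.7% of all genes. GAAANNGAAA was in 3 of 32 (9.38%; Psmb3, Psmd4 and Psmd9) beside 3.46%, and TTCNNNGAA in 0 of 32 beside 8.13%.

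Transcript length moved with these differences. Over the tested loci the median change fell from 0.48 in the shortest of 10 equal bins (median 783 bases) to -0.59 in the longest (7374 bases), and within the 38 genes change and length had a Spearman correlation of -0.54, against -0.64 over the other loci. Each gene was also set beside the median of loci of nearly its own length (from 0.8 times that length up to the inverse factor). By that measure 33 of 38 lay above, with a median excess of 0.28 and a range of -0.13 to 1.30, and 24 lay above by more than 0.2. The largest excesses were those of Psmd9 (1.30), Psmd13 (0.75), Psma2 (0.71), Psmb1 (0.71) and Psme4 (0.68). The 5 genes not above loci of their length were Psme3 (-0.13), Psmd11 (-0.11), Psmd10 (-0.11), Psme2 (-0.10) and Psma4 (-0.05).

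With the length trend of each library removed, 22 of 38 were higher and 0 lower (median 0.29), where 17% of all loci were higher. Of the 28 called before, 19 remained, and Psmd2, Psmd5 and Psme4, which are long, were added. By class, 6 of the 7 beta ring genes called before kept their call, 3 of 6 alpha ring genes, 3 of 5 ATPases and 6 of 8 non-ATPase cap subunits. Class medians after removal were 0.52 for the beta ring, 0.28 for the alpha ring and 0.24 for the cap. Values after removal were 1.29 ± 0.16 for Psmd9, 0.74 ± 0.09 for Psmd13, 0.70 ± 0.10 for Psmb5, 0.70 ± 0.10 for Psmb1 and 0.67 ± 0.10 for Psmd4.

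**Figure D4:**
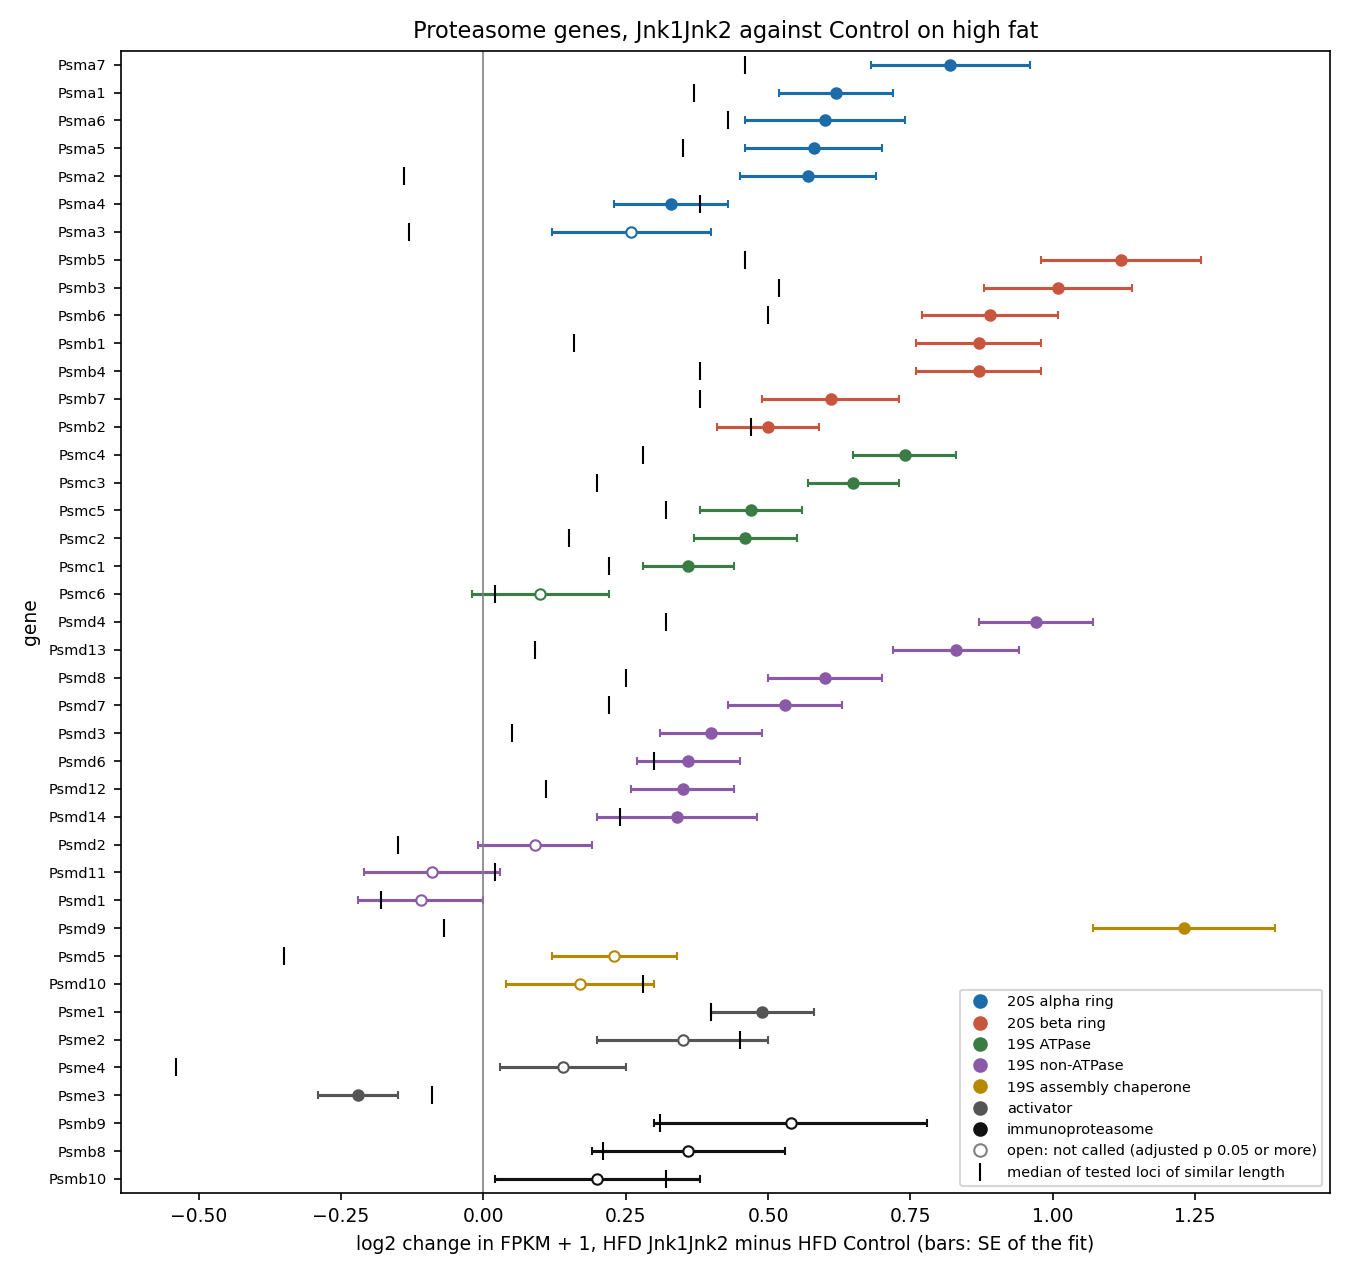
Difference in log2(FPKM + 1) of each tested proteasome gene, high fat Jnk1Jnk2 minus high fat Control (horizontal axis), with the SE of the fit. Filled circles were called, open circles were not, and black ticks are the medians of tested loci of similar length. Psmd9 (1.23) lay farthest from its tick (-0.07), and Psmb2 (0.50) lay close to its own (0.47).

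**Figure D5:**
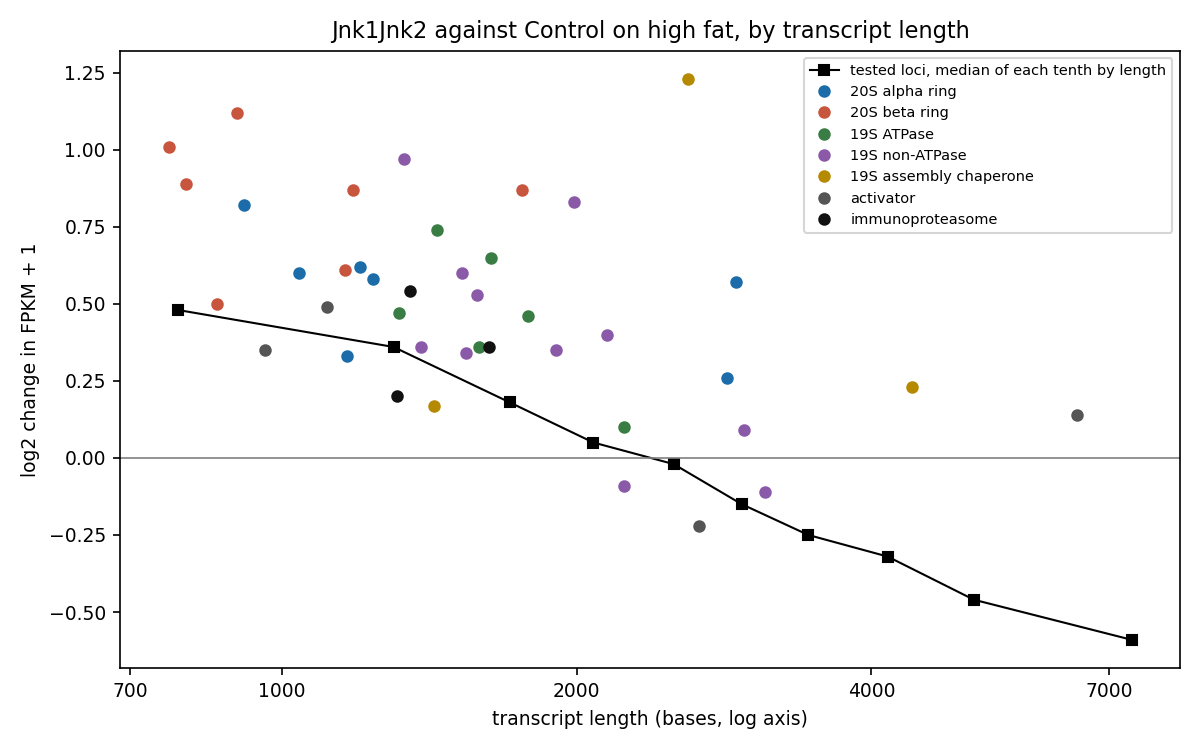
Difference in log2(FPKM + 1) between high fat Jnk1Jnk2 and high fat Control (vertical axis) against transcript length (log axis). Squares are medians of 10 equal bins of the tested loci and circles are proteasome genes by class. The squares fall from 0.48 to -0.59, and most circles lie above the line.

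Within Jnk1Jnk2, high fat against chow gave 24 of 38 constitutive genes higher and 3 lower (Psmd11, Psmd1 and Psme3), where 30.1% of all loci were higher and 26.8% lower, and 51.8% of loci of similar length were higher and 5.79% lower. Quantile normalization gave 13 higher and 6 lower, a setting for which no share of all loci is given. The largest rises were those of Psme2 (0.93 ± 0.15), Psmb1 (0.90 ± 0.11) and Psmb6 (0.84 ± 0.12). The genes did not stand above loci of their length in this contrast: 17 of 38 lay above the local median, with a median excess of -0.02. With the length trend removed 5 were higher and 6 lower, with 19.6% and 21.1% of all loci called higher and lower. Of the 24 called higher, 4 remained, and the difference of Psmb3 went from 0.63 to -0.03.

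The diet response of Jnk1Jnk2 differed from that of Control for 20 of 38 genes, all more positive, where 15.8% of all loci had a more positive and 19.1% a more negative response, and 28.7% of loci of similar length a more positive one. Values were 1.13 ± 0.20 for Psmb5, 1.02 ± 0.23 for Psmd9 and 1.01 ± 0.19 for Psmb3, and all 7 beta ring genes were called. After its removal from each library 12 were called, where 10.2% of all loci were, and 10 of them were among the 20. Quantile normalization gave 16 more positive and 3 more negative, again without a share of all loci. This comparison, the one on high fat and the Control diet contrast share the high fat Control libraries, in which Psmb3, Psmd9, Psmd4 and Psmb5 had their lowest or next to lowest group mean.

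Genes of the wider pathway were called in both directions in high fat Jnk1Jnk2 against Control. Of 19 genes of assembly and regulation, 5 were higher and 6 lower (median 0.03). Tnks, a poly-ADP-ribosylating enzyme, was lower at -0.85 ± 0.13, Psmg3, a chaperone of core assembly, higher at 0.82 ± 0.21, and Pomp, the maturation factor of the core, higher at 0.73 ± 0.12. With the length trend removed Pomp remained higher (0.51, adjusted p = 0.00125), and Tnks (-0.20) and Psmg3 (0.37) did not pass. Of 21 genes of ubiquitin and shuttling, 4 were higher and 7 lower (median 0.00), with Ubqln2, a shuttle factor, at -0.79 ± 0.11 and the ubiquitin-activating enzyme gene Uba6 at -0.72 ± 0.12. Of 12 targets of NRF1, NRF2 and heat shock factor, 1 was higher and 3 lower. These counts stand beside 19.6% of all tested loci higher and 31.6% lower. After the length trend was removed, when 17% of loci were higher and 16.5% lower, the counts were 4 and 1 for assembly, 5 and 3 for ubiquitin and 1 and 3 for the targets.

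Of 13 class I genes 1 was higher and 5 (38.5%) were lower in that comparison, among them Erap1, a peptide-trimming protease (-1.19 ± 0.12). Of 23 interferon response genes 2 were higher and 9 (39.1%) lower, with Gbp7 at -0.92 ± 0.11. Before the length trend was removed, both shares lay near the 31.6% of all tested loci called lower. Its removal gave 0 higher and 6 lower of the 13 class I genes, and 1 higher and 8 lower of the 23 interferon genes. Of all loci 17% were then higher and 16.5% lower, so both lists held a larger share called lower than all loci. The class I genes did not move as one. Those called lower in the diet interaction with Jnk1Jnk2 were Canx, Calr, Pdia3, Erap1 and Nlrc5. Means in high fat Jnk1Jnk2 and Control were 2243 and 1983 FPKM for B2m, 665 and 646 for H2-K1, and 12.2 and 11.9 for Tap2. They were 11.3 and 13 FPKM for Tap1, 25.5 and 28.9 for Tapbp, and 1.72 and 3.96 for Nlrc5. These means were not adjusted for length. Macrophage markers were higher for 9 of 16 and lower for 1 (5 and 0 after removal), and their sums were 642 to 833 FPKM in high fat Jnk1Jnk2 against 421 to 495 FPKM in high fat Control. Their part in the difference of the proteasome genes was not tested.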

How the data were processed

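Liver RNA-seq values came as one table of FPKM per locus and library, which the authors made with TopHat, Cufflinks and Cuffdiff on mm10, per the submitters' processing notes; versions, strandedness and the annotation are not given in the sources used here. All 24 columns of the deposited table matched a labelled sample (0 did not), and groups follow the sample titles. The members and gene lists were chosen with earlier results of these data known.

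FPKM are not counts, so limma-trend 3.58.1 (R 4.3.3) was fitted to log2(FPKM + 1) in 1 fit of 24 libraries and 8 group means, with 16 residual degrees of freedom. Of 31027 loci, 10562 passed a minimum of 1 FPKM in the mean over libraries and entered 13 contrasts. Fold changes on this scale understate changes of low genes. Transcript lengths came from GENCODE vM21 basic (96.5% of tested loci), and the length trend was a loess (span 0.5) of each library's deviations on log2 length. Upstream sequences were RefSeq's on GRCm38.p6; 35 of the 41 tested members matched by symbol. Named genes are the immunoproteasome genes, their counterparts, the activators and, per contrast, called members with the 3 largest changes in each direction; from each list the 3 largest called changes could be named, and Psma2, Psmb1, Psmd13 and others were named from their values. Relative depth was estimated from the commonest ratio of low FPKM values between libraries, and since the absolute depth is unknown no counting interval is given. Replicate numbers were not treated as pairs outside the replicate block. Loci of Psme1, Psma3 and Psma4 overlap other genes, and pseudogene copies of Psmb5, Psmb6 and Psmb7 are annotated, so those values are uncertain. The fit was tested on simulated data. Alternatives were size factors, quantile normalization, a pseudocount of 0.1, no minimum, a minimum of 5 FPKM, only the groups compared, the replicate block, length trends removed and each library left out.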

Additional observations from a re-analysis of the deposited data

Results flagged for a closer look

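The diet response of some constitutive proteasome genes differed between Control and knockout livers by limma's interaction test at an adjusted p under 0.05. For Jnk2 against Control this held for 3 of 38 genes: Psmd4 (0.64), Psmd8 (0.58) and Psmd3 (0.55), as differences of log2 changes. Of all tested loci, 6.18% were called with a more positive and 3.33% with a more negative response there, so the count of proteasome genes does not stand above the background. For Jnk1Jnk2 against Control it held for 20 of 38, all more positive (16 and 3 more negative with quantile normalization), and the largest differences were those of Psmb5 (1.13), Psmd9 (1.02) and Psmb3 (1.01). There 15.8% of all tested loci and 28.7% of loci of similar length had a more positive response, and 19.1% of all loci a more negative one. After the length trend was removed 12 of the 38 were called. No group had 4 or more libraries, so no library was tested for standing apart within its group.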

How the results depend on the processing

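Of 117 changes called in single genes, 48 kept their call in every setting and 86 with each library left out in turn. The trends with length and GC content removed together were added after seeing the data. Shares of all loci are given for the main fit and, in part, with the length trend removed. Counts under other settings stand without such a share. Counts of the 38 constitutive genes called moved by over 1.5 times as follows. High fat against chow in Control gave 12 with size factors, 12 with quantile normalization, 3 with only the groups compared, 15 with the length trend removed and 18 with length and GC trends removed. The same contrast gave 15 in Jnk1 (length and GC), 9 (length) and 5 (length and GC) in Jnk2, and 11 (length) and 13 (length and GC) in Jnk1Jnk2. Jnk2 against Control on high fat gave 0 with only the groups compared. The interaction with Jnk2 gave 5 with quantile normalization and 6 with the length trend removed, and that with Jnk1Jnk2 gave 12 with length and 12 with length and GC removed. With each library left out, counts were 4 to 9 (Jnk2 on high fat), 27 to 31 (Jnk1Jnk2 on high fat), 3 to 8, 2 to 9, 2 to 3 and 24 to 28 (diet in Control, Jnk1, Jnk2 and Jnk1Jnk2), 3 to 10 and 16 to 21 (interactions with Jnk2 and Jnk1Jnk2) and 0 to 0 elsewhere.

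Signs turned mostly for diet in Jnk1Jnk2 livers. With the length trend removed these were Psma4 (-0.17), Psma5 (-0.19), Psma6 (-0.05), Psma7 (-0.14), Psmb2 (-0.18), Psmb3 (-0.03), Psmb7 (-0.03), Psmc5 (-0.21), Psmd14 (-0.06), Psmd4 (-0.01) and the median (-0.02). With length and GC trends removed they were Psma4 (-0.07), Psma5 (-0.15), Psma7 (-0.15), Psmb2 (-0.17), Psmb3 (-0.04), Psmc4 (-0.02), Psmc5 (-0.21), Psmd4 (-0.05) and Psme1 (-0.02), and with quantile normalization Psma5 (-0.00). In the interaction with Jnk1Jnk2, Psmb2 turned to -0.16 (length) and -0.14 (length and GC) and Psmc5 to -0.01 (length), and on high fat in Jnk1Jnk2 against Control Psma4 turned to -0.01 (length). The cause was not tested.

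The replicate numbers were not treated as pairs, and same-numbered libraries correlated at -0.26 to 0.207. In Jnk2 against Control on high fat, 5 of 6 libraries correlated best with their own number, with same-numbered pairs at 0.008 to 0.068. In Jnk1Jnk2 against Control on high fat, 4 of 6 did, with pairs at 0.027 to 0.207. In each other contrast at most 2 of 6 did. With the replicate block, 28 genes were called in Jnk1Jnk2 against Control on high fat, 7 in Jnk2 against Control, 4 for diet in Control and 18 for the interaction with Jnk1Jnk2. FPKM without counts limits what can be said of low genes such as Psma8 and Psmb11.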
